A study of Mus musculus with 36 samples.

Results

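Of the 12 neurons labelled dSC, read here as the deep superior colliculus, 6 were glutamate cells and 5 were GABA cells, and 1 was left out. The cells were chosen by a score, D, the mean log2(value + 1) of Gad1 and Gad2 minus log2(value + 1) of Slc17a6. A cell with D below -1 was a glutamate cell and one with D above 1 was a GABA cell. The whole series holds 36 neurons of 18 clones. The 6 glutamate cells came from 6 clones and the 5 GABA cells from 4, since both dSC cells of clone O were GABA cells and were averaged. Every cell belonged to a MADM clone, the progeny of a single radial glia progenitor that recombination marks with colour, induced at embryonic day 12. All mice carried the M11GTTG alleles of this system on a mixed C57/Bl6, FVB and CD1 background. Among the glutamate cells, 3 were of the M11GTTG-Fz10-CreER genotype and 3 of M11GTTG-Sox2-CreER. Among the GABA cells, 3 were M11GTTG-Fz10-CreER and 2 M11GTTG-Sox2-CreER, the 2 being the pair from clone O. The labels give neither the age of each neuron at collection nor the animal it came from, so clones may share an animal. The p-values below measure the spread between clones. In dSC every clone but O gave a single classed cell, so that spread includes the spread between single cells. All 12 cells are labelled as neurons, and 17 or 18 of 18 pan-neuronal markers were at a value of 1 or more in each classed cell.

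Slc17a6 encodes the transporter that fills the vesicles of midbrain excitatory neurons with glutamate, Gad1 and Gad2 encode the glutamate decarboxylases that produce GABA, and Slc32a1 encodes the transporter that loads GABA into vesicles. In the embryonic dorsal midbrain, the GABAergic lineage expresses factors such as Gata2, Helt, Tal1, Tal2, Gata3, Sox14 and the LIM factors Lhx1 and Lhx5. Excitatory neurons of the same region express Lhx2, Lhx9, Pou4f1, Pou4f2, Ebf and Barhl factors. Deep collicular neurons of both kinds take part in orienting and escape circuits.

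The cells are named below by clone letter and cell number, and per-cell values always follow the order D.1, J.1, L.2, I.1, F.1 and Q.2 for glutamate cells and O.1, O.2, U.2, B.1 and A.2 for GABA cells. Values are the deposited expression signal, in which every cell sums to 2000000. Differences are glutamate minus GABA on the log2(value + 1) scale over clone means, so a positive one is higher in glutamate cells.

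D was -5.77, -5.74, -3.92, -2.42, -2.38 and -1.55 in the glutamate cells and 1.35, 4.67, 8.25, 8.58 and 9.18 in the GABA cells. The cells closest to the limits were Q.2 and O.1 on the inside and C.1, at -0.17, on the outside. Slc17a6 had values of 128, 763, 105, 369.8, 345 and 137 in glutamate cells, against 53.8, 19.2, 0, 0 and 0 in GABA cells. Gad1 had 0, 4.76, 48.7, 27.2, 40.1 and 53.6 in glutamate cells and 175, 436, 322, 258 and 642 in GABA cells. Gad2 had 4.56, 34.6, 0, 169.5, 106 and 39.6 in glutamate cells and 109, 605, 286, 564 and 521 in GABA cells. These 3 genes set the classes and carry no test. Transcripts of the other transmitter's enzyme were common among the glutamate cells: I.1 had Gad2 at 169.5 and Q.2 had Gad1 at 53.6 and Gad2 at 39.6. Among the GABA cells, Slc17a6 was listed at 0 in U.2, B.1 and A.2 and was present in both cells of clone O. Slc32a1, also kept out of the comparison, was listed at 0 in 5 glutamate cells and at 14.2 in F.1, against 28.5, 31.4, 7.36, 7.54 and 47.97 in GABA cells, where no cell lacked it.

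**Figure D1:**
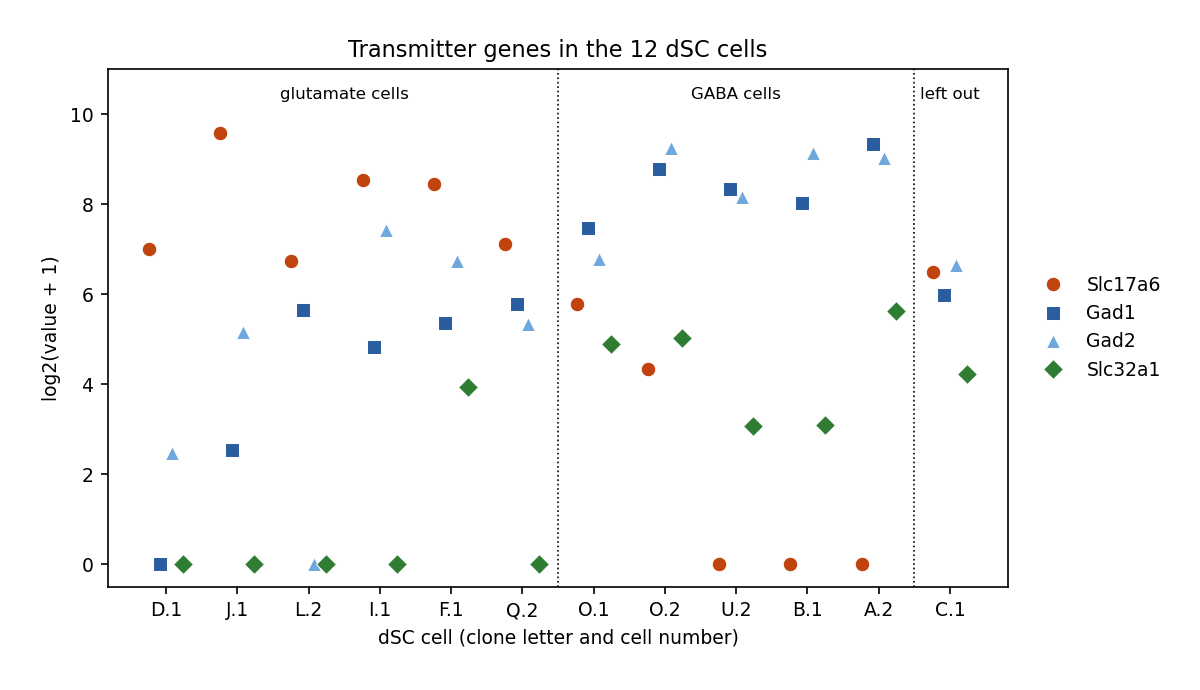
Values of Slc17a6, Gad1, Gad2 and Slc32a1 in the 12 dSC cells on the log2(value + 1) scale, with glutamate cells at the left, GABA cells in the middle and the cell left out at the right. Slc17a6 is the highest of the 4 genes in each glutamate cell and at 0 in 3 of 5 GABA cells, and F.1, O.1, O.2 and C.1 hold all 4 genes.

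Genes detected, meaning those at 1 or more, numbered 11142 ± 2419 in glutamate clones (SD, n = 6) and 12706 ± 1883 in GABA clones (SD, n = 4). The cell with the fewest was D.1, at 7095, and the one with the most was A.2, at 15472. The difference of -1565 genes gave p = 0.343 in a two-sided exact permutation test, whose smallest possible p here is 0.00952. The values keep no read depth, and a transcript that was not captured is also listed at 0.

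No tested gene passed the adjusted p threshold of 0.05 between the classes. Slc17a6, Gad1, Gad2 and Slc32a1 were left out of the test. Of 15548 genes tested with limma, 0 were called (0%), 638 had an unadjusted p under 0.05 (4.1%), and the smallest adjusted p was 0.261. Of the 638, 111 were higher in glutamate clones (0.714%) and 527 higher in GABA clones (3.39%). The clone means of the classes did not overlap for 26 genes higher in glutamate clones (0.167%) and for 89 genes higher in GABA clones (0.572%). The median difference over all tested genes was -0.26, and 0.01 after quantile normalization, and 0.11 with the number of genes detected as a covariate. The share of genes with a difference above 0 was 40.5%, and 59.5% were below 0. Every gene described below therefore misses the threshold, and its values and unadjusted p are given as a description.

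For the factors these results turn on, promoters were read from RefSeq (GRCm38.p6), from 250 bases before to 50 after the start, and 3 are printed in full. Sox14 and Gata3 are shown because they led the GABAergic lineage factors, and Fos because it led the immediate early genes. Capitals mark CAGCTG, a sequence of the E-box type read by basic helix-loop-helix factors, and TATAAA, the TATA box. AGATAA, the sequence read by GATA factors, was also searched. Matches were exact, on both strands, and no match overlapped another.
Sox14, minus strand of chr9:99876121-99876420: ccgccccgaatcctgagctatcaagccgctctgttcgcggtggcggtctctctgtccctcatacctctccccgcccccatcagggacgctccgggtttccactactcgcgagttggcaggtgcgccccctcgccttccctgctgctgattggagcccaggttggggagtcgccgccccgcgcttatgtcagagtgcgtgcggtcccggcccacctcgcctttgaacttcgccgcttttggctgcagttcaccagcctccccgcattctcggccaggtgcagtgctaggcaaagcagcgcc
Gata3, minus strand of chr2:9878551-9878850: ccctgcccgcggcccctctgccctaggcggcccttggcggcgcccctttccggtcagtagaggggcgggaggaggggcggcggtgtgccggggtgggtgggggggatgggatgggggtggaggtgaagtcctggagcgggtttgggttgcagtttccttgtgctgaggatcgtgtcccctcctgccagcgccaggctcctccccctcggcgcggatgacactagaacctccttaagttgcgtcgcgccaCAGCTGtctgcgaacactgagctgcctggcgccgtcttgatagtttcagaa
Fos, plus strand of chr12:85473640-85473939: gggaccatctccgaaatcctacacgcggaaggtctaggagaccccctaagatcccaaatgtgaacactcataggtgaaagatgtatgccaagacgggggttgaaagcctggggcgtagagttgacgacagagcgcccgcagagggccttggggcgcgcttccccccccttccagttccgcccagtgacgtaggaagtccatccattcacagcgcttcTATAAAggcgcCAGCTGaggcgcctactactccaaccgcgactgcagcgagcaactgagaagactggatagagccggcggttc
The Sox14 window held none of these letters, Gata3 held CAGCTG across its start, and Fos held TATAAA followed by CAGCTG. Of 32851 promoters in the table, 11.2% held AGATAA, 16.3% CAGCTG and 13.6% TATAAA. Of the 8 genes looked up, 7 had a promoter in the table, in 8 windows. Gata3 and Fos held CAGCTG, Fos held TATAAA, and Lhx1, Lhx2, Lhx9 and Fosb held none of the 3. Lhx5 was the other gene looked up.

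The GABAergic lineage factors Sox14, Gata3, Lhx5 and Lhx1 had higher means in GABA clones. Of 27 in the list, 21 could be fitted with no filter on low values. Their median difference was -0.49, against -0.17 for all genes so fitted. Of the 21, 13 were higher in GABA clones, near the 59.5% of all genes tested with the filter. The filter kept 12, of which 9 were higher in GABA clones, with a median of -1.59 against -0.26 for all tested genes. A factor that only 1 class expresses passes that filter through its own class, so the counts and medians after the filter are a description only. The filtered median was -2.52, -3.06 and -2.57 without clones L, O and Q. Under an unadjusted p of 0.05, 5 were higher in GABA clones and 0 in glutamate clones, and the clone means of 3 did not overlap, against 3.39% and 0.572% of all genes. Sox14, an HMG-box factor of midbrain and thalamic interneurons, was listed at 0 in all 6 glutamate cells, against 0, 62.7, 95.2, 92.8 and 129 in GABA cells. Every GABA cell but O.1 therefore had Sox14, and the difference was -5.79 ± 1.24 (SE, limma adjusted p = 0.474). Gata3, a zinc-finger factor of the GABAergic lineage, had 0, 0, 1.05, 0, 0 and 4.27 in glutamate cells and 0, 116, 51.8, 38.5 and 64.8 in GABA cells. Its difference was -4.55 ± 1.23 (SE, limma adjusted p = 0.962). The pattern by cell was that of Sox14, with O.1 again at 0.

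The LIM-homeodomain factors Lhx5 and Lhx1 had the same order at lower levels. Lhx5 had 0, 0, 0, 0, 0 and 0.902 in glutamate cells, against 0, 12.3, 38.98, 38.1 and 13.2 in GABA cells, a difference of -3.92 ± 1.13 (SE, limma adjusted p = 0.962). Lhx1 had 0, 0, 0.43, 0, 0 and 10.1 in glutamate cells, against 0, 6.36, 17.5, 46.1 and 10.98 in GABA cells, and its clone means overlapped through Q.2. Tal1, a partner of GATA factors, had 0, 0, 9.704, 0, 0 and 11.6 in glutamate cells, against 0, 5.91, 2.14, 37.6 and 24.7 in GABA cells, and the classes overlapped. Gata2, which acts upstream of these factors in the midbrain, was too rarely seen to be tested. It was at 1 or more in 0 of 6 glutamate cells and 2 of 5 GABA cells, with a highest value of 20.8. Helt and Ptf1a were listed at 0 in all 11 cells.

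Without O.1, chosen for removal after the data were seen, the GABAergic lineage factors had a median of -2.43, with 8 of 10 tested higher in GABA clones. Sox14 then differed by -6.54 and Gata3 by -5.41, with limma adjusted p of 0.163 and 0.442. Both genes were at 0 in O.1, so its removal was bound to widen these differences. O.1 held Slc17a6 at 53.8 beside Gad1 at 175, and its sister O.2 had 13048 genes at 1 or more against 9561 in O.1.

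Most glutamatergic lineage factors had higher means in glutamate clones. Of 27 in the list, 25 could be fitted with no filter on low values. Their median difference was 0.79, against -0.17 for all genes so fitted. Of the 25, 20 were higher in glutamate clones, against 40.5% of all genes tested with the filter. The filter kept 20, of which 17 were higher in glutamate clones, with a median of 0.98 against -0.26 for all tested genes, 0.37 without clone B and 1.55 without clone O. Under an unadjusted p of 0.05, 2 were higher in glutamate clones, against 0.714% of all genes, and the clone means of 0 did not overlap. Lhx2, a LIM-homeodomain factor, had 19.4, 15.5, 79.8, 69.8, 36.4 and 9.93 in glutamate cells and 3.24, 0, 27.6, 0 and 0 in GABA cells. It was present in every glutamate cell and in 2 of 5 GABA cells, of which U.2 was inside the glutamate range. The difference was 3.46 ± 1.34 (SE, limma adjusted p = 1). Its close relative Lhx9 had 77.6, 21.99, 0, 25.2, 145 and 20.4 in glutamate cells and 0, 2.27, 1.18, 0 and 10.6 in GABA cells, a difference of 3.14 ± 1.46 (SE, limma adjusted p = 1).

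The POU factors were present in part of the glutamate cells. Pou4f1 had 20.2, 0, 104, 31.2, 24.03 and 0 in glutamate cells, against 0, 166, 0, 0 and 0 in GABA cells, where O.2 held the highest value of all 11 cells. Pou4f2 had 0, 21.5, 0, 0, 28.2 and 26.5 in glutamate cells, against 0, 0, 0, 0 and 2.91 in GABA cells. The unadjusted p was 0.115 for Pou4f1 and 0.178 for Pou4f2 (limma), and neither factor was in all glutamate cells. Ebf1, Ebf2 and Ebf3, factors of early neuronal differentiation, differed by 1.32 ± 1.57, 0.52 ± 1.28 and 1.69 ± 1.45 (SE). Tfap2b, an AP-2 factor placed in this list, lay on the opposite side. It had 38.6, 0, 3.91, 312, 2.08 and 4.58 in glutamate cells and 19.4, 156, 131, 167 and 15.96 in GABA cells, a difference of -2.75 ± 1.49 (SE, limma unadjusted p = 0.0788).

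**Figure D2:**
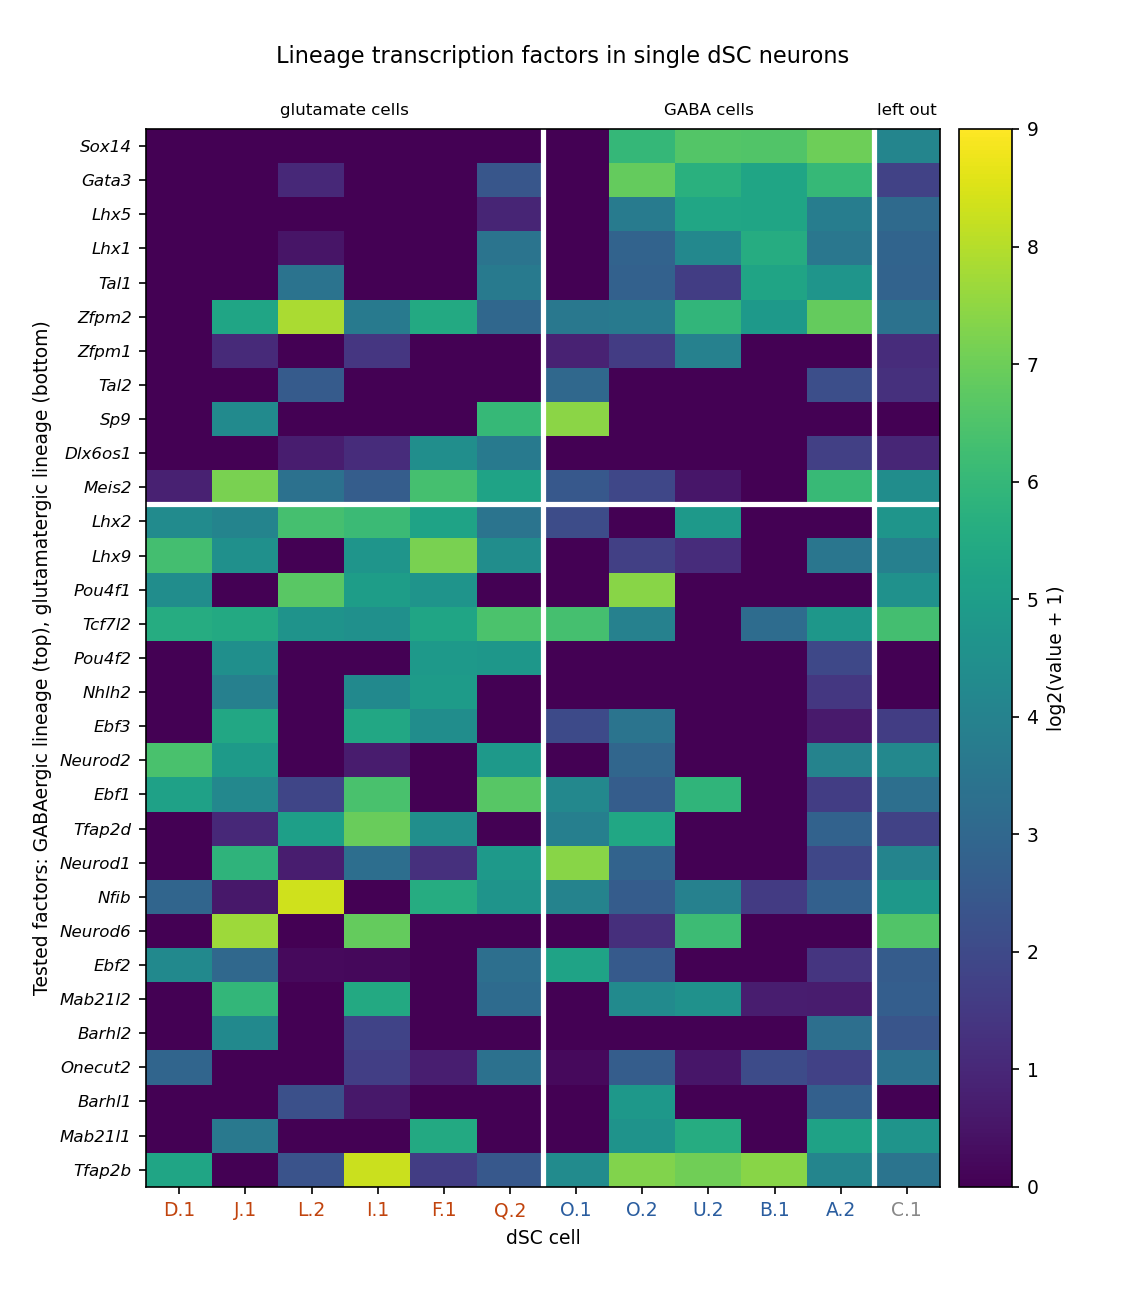
Colour gives log2(value + 1) of 11 tested GABAergic (top) and 20 tested glutamatergic (bottom) lineage factors, a row each, in the 12 dSC cells, with glutamate cells at the left, GABA cells next and the cell left out at the right. Sox14, Gata3, Lhx5 and Lhx1 fill 4 of 5 GABA cells and are at 0 in O.1, and Lhx2 fills all 6 glutamate cells.

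Of 9 tested regional factors, 1 had an unadjusted p under 0.05 and was higher in GABA clones, against 3.39% of all genes. This was Otx2, a homeobox factor of the midbrain territory, which was at 0 in 5 glutamate cells and at 26.7 in F.1, against 13.5, 40.9, 0, 43.9 and 320.5 in GABA cells. The difference was -3.81 ± 1.57 (SE, limma unadjusted p = 0.025), and the GABA cell U.2 was at 0. Pax7, a paired-box factor of the dorsal midbrain, had 0, 0, 0, 0, 2.399 and 0 in glutamate cells and 0, 0, 13.7, 0 and 18.7 in GABA cells. Of 22 regional factors, 9 passed the filter, with 5 higher in glutamate clones and a median of 0.42, which was -0.28 without clone O and -0.02 without clone L.

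The genes of smallest p on the GABA side were mostly genes listed at 0 in glutamate cells. The 12 were Pno1, Nubp2, Snx20, Sox14, Gmppb, AV356131, Gm27003, Mettl21a, Nsdhl, Slc25a29, Lysmd1 and Cd40. Pno1, a ribosome assembly factor, was at 0 in every glutamate cell, against 290.0, 39.4, 134, 147 and 45.6 in GABA cells. It had the smallest p of the whole table, with a difference of -6.65 ± 1.18 (SE, limma adjusted p = 0.261). Nubp2, an iron-sulfur cluster assembly protein, had 0, 0, 0, 0.99, 0 and 0 in glutamate cells and 65.4, 56.7, 137, 55.8 and 40.9 in GABA cells, a difference of -5.903 ± 1.18 (SE, limma adjusted p = 0.474). Both genes separated the classes cell by cell. Without limma's trend and robust settings, these 2 genes and Snx20 passed, with adjusted p of 0.00643, 0.015 and 0.0317. None of the 3 reached 1 in a glutamate cell, so they entered the test through the GABA cells alone. Over the glutamate clones their SD was 0, 0.41 and 0, and their passing is a description only. Sox14, AV356131, Gm27003, Mettl21a, Slc25a29 and Cd40 were also at 0 in every glutamate cell and entered through the GABA cells alone. The rank of these genes by p is likewise a description only.

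Snx20, a sorting nexin best known in white blood cells, was at 0 in the glutamate cells, against 0, 214, 67.95, 75.1 and 54.5 in GABA cells. Slc25a29, a mitochondrial carrier of basic amino acids, was also at 0 in glutamate cells, against 20.7, 14.3, 30.9, 16.9 and 21.5 in GABA cells, a narrow range. Nsdhl, an enzyme of cholesterol synthesis, had 0, 0, 0, 0, 6.59 and 0 in glutamate cells and 125, 66.5, 40.5, 44.2 and 42.4 in GABA cells. Each of these 3 was in at least 4 of 5 GABA cells. Gmppb, which makes GDP-mannose, had 0, 37.8, 0, 0, 0.68 and 0 in glutamate cells and 18.4, 164, 697, 307 and 60.5 in GABA cells. The methyltransferase gene Mettl21a was at 0 in glutamate cells, against 0, 34.9, 97.9, 36.4 and 60.4 in GABA cells. Cd40, a receptor of the tumour necrosis factor family found on immune cells, was at 0 in glutamate cells, against 3.11, 22.2, 34.4, 73.2 and 12.05 in GABA cells. The summed values of 16 microglial markers beside it ran from 459 to 16579 in glutamate cells and from 1124 to 4174 in GABA cells.

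On the glutamate side the leading genes were Tmem237, Ift74, Fos, Nrn1, Dydc2, Naa30, Fuom, S100a10 and the noncoding AC122399.1, A330076H08Rik, D530033B14Rik and Gm26679. Tmem237, a protein of the transition zone of the primary cilium, had 151, 40.1, 161, 71.5, 14.2 and 196 in glutamate cells, against 0, 27.4, 0, 0 and 5.46 in GABA cells. The difference was 5.002 ± 1.24 (SE, limma adjusted p = 0.713), and the clone means did not overlap. Ift74, part of the train that carries cargo along the cilium, had 132, 11.8, 185, 144, 83.3 and 200.4 in glutamate cells, against 11.95, 78.8, 0, 0 and 0.55 in GABA cells, a difference of 5.17 ± 1.31 (SE, limma adjusted p = 0.738). O.2 reached the glutamate range of both genes and O.1 that of Ift74. Of the noncoding genes, 3 are antisense to a coding gene in the annotation, AC122399.1 to Slc8a1, D530033B14Rik to 1600014C10Rik and Gm26679 to Mbnl2, and reads of both strands cannot be told apart where strand is unknown. Gm27003, on the GABA side, is antisense to Gabpb1. Tmem237, Ift74, Nrn1, Dydc2, Fuom, Pno1, Gmppb, Lhx5, Lhx2, Otx2, Cacna2d1, Asic4, Synpr and Kcnip1 are among the named genes that overlap a gene on the opposite strand.

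Nrn1 and Cacna2d1 had higher means in glutamate clones of both dSC and sSC, below the threshold in each. Nrn1, which encodes neuritin, an activity-regulated surface protein that promotes neurite growth, had 983, 408, 446, 279, 163 and 346 in glutamate cells and 256, 36.4, 144, 0 and 73.7 in GABA cells. O.1 lay within the glutamate range, but the clone means did not overlap, and the difference was 3.55 ± 1.09 (SE, limma adjusted p = 0.962). Cacna2d1, an auxiliary subunit of voltage-gated calcium channels, had 6.495, 55.1, 72.9, 159, 69.9 and 68.6 in glutamate cells, against 1.42, 0.44, 13.3, 3.49 and 10.5 in GABA cells. Here D.1 was the low glutamate cell and lay inside the GABA range, and the difference was 3.14 ± 1.21 (SE, limma adjusted p = 1). Asic4, of the acid-sensing channel family, had the opposite order, with 0, 0, 0, 0, 4.22 and 0 in glutamate cells and 3.13, 10.5, 6.17, 38.4 and 52.8 in GABA cells, and a difference of -3.77 ± 1.204 (SE, limma adjusted p = 0.962). Among 38 tested sodium, calcium, HCN and ASIC channel genes, 20 were higher in glutamate clones, with a median of 0.10. Potassium channels divided 25 to 23 with a median of 0.06, and Kcnip1, a cytoplasmic subunit of A-type channels, differed by -2.395 ± 1.103 (SE), with clone means that did not overlap.

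Immediate early genes, which neurons switch on within minutes of strong activity or stress, had higher means in glutamate clones for most members. Of 25 listed, 23 were tested, 16 were higher in glutamate clones, against 40.5% of all genes, and the median difference was 1.32. An unadjusted p under 0.05 was reached by 2, both higher in glutamate clones, against 0.714% of all genes. Fos, a subunit of the AP-1 factor, had 2534, 619.7, 1253, 142, 956 and 989 in glutamate cells, against 9.68, 138, 105, 180.1 and 371 in GABA cells. The 5 highest values were all in glutamate cells, I.1 lay inside the GABA range, and the difference was 2.64 ± 0.698 (SE, limma adjusted p = 0.947). Fosb, its relative, had 40.9, 20.9, 45.4, 22.4, 28.3 and 82.3 in glutamate cells, against 0, 0.46, 11.7, 3.68 and 9.85 in GABA cells, with no overlap and a difference of 2.79 ± 1.196 (SE, limma adjusted p = 1). Junb and Ier2 differed by 1.63 ± 0.83 and 3.37 ± 1.72 (SE), with an unadjusted p of 0.0634 and 0.0646 (limma). Summed over the 25 genes, the values per cell were 4636, 1927, 4594, 900.4, 3744 and 5073 in glutamate cells, against 617, 1002, 1162, 1323 and 1073 in GABA cells. Again I.1 was the glutamate cell within the GABA range. The part of handling or of other cells in this was not tested. Heat shock chaperones, of which 14 were tested, had a median of -0.20. The summed microglial markers were 459, 13405, 3265, 4308, 16579 and 5764 in the same glutamate cells, against 3219, 1124, 1473, 4174 and 4155 in the GABA cells.

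**Figure D3:**
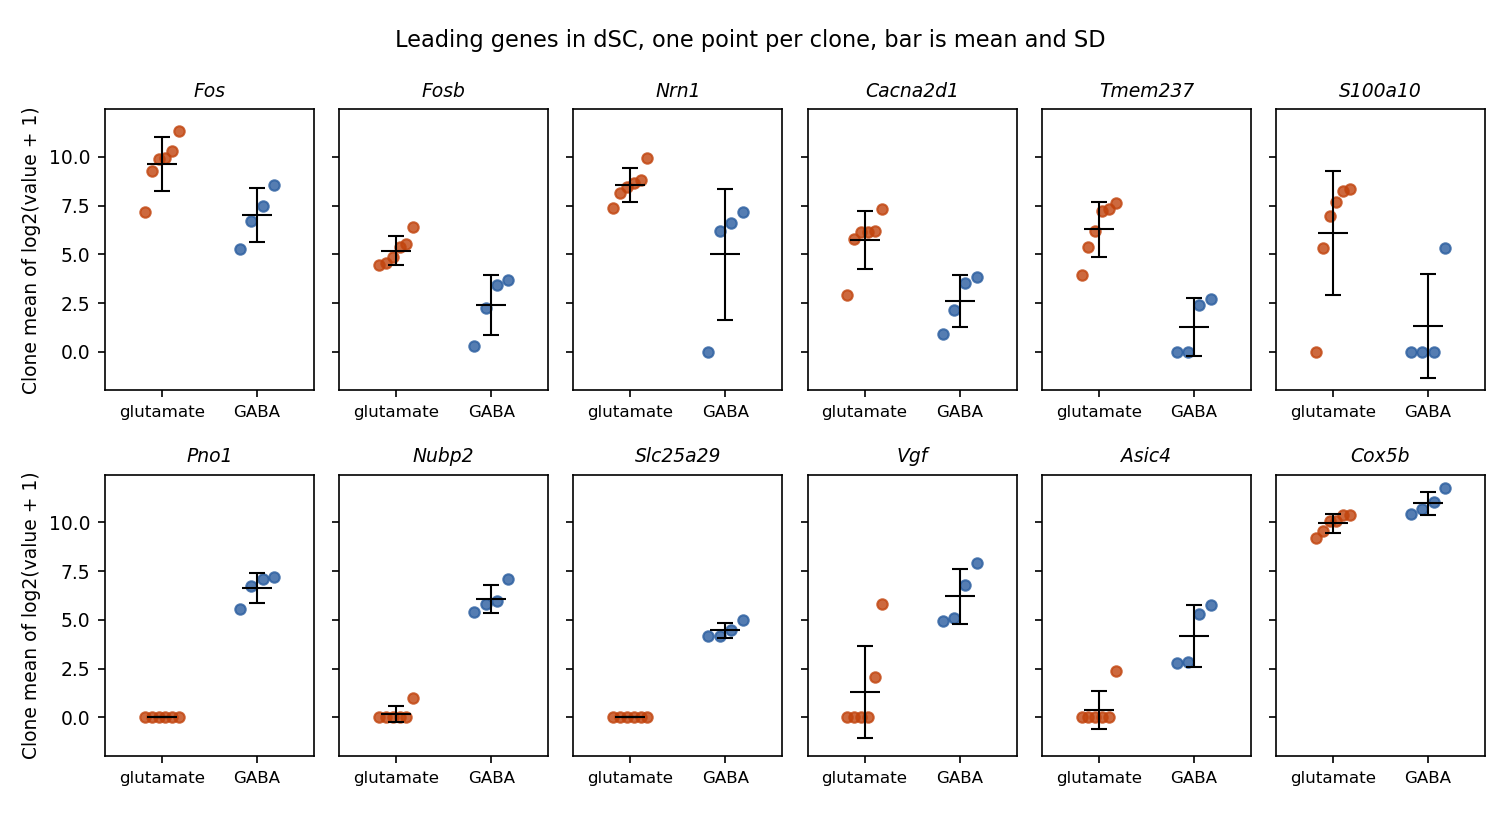
Clone means of log2(value + 1) for 12 genes, with 6 glutamate clones left of 4 GABA clones in each panel, and mean and SD as bars. Fosb, Nrn1 and Tmem237 separate the clones upwards in glutamate and Pno1, Nubp2, Slc25a29, Asic4 and Cox5b upwards in GABA, while the other panels overlap.

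Several neuropeptide precursors, among them Vgf and Pnoc, had higher means in GABA clones. Of 34 listed, 29 could be fitted with no filter on low values. Their median difference was -0.72, against -0.17 for all genes so fitted. Of the 29, 20 were higher in GABA clones, against 59.5% of all genes tested with the filter. The filter kept 20, of which 14 were higher in GABA clones, against 59.5% of all genes, with a median of -1.04. A precursor seen mainly in 1 class passes that filter through its own class, so the filtered counts and medians are a description only. The filtered median was -0.41 with a class threshold of 0, -0.55 without clone F and -1.58, -1.67 and -1.67 without clones A, I and Q. With genes detected as a covariate it was -1.26. Vgf, which is processed into several secreted peptides, had 0, 0, 0, 0, 3.16 and 54.6 in glutamate cells, against 5.74, 145, 112, 239 and 33.8 in GABA cells. Its difference was -4.89 ± 1.43 (SE, limma adjusted p = 0.962), and Q.2 was the glutamate cell inside the GABA range. Pnoc, the precursor of nociceptin, had 0, 30.9, 0, 0, 0 and 0 in glutamate cells, against 0, 356, 55.7, 129 and 16.4 in GABA cells, a difference of -4.47 ± 1.38 (SE, limma adjusted p = 0.962). Cartpt, the precursor of the CART peptides, was in Q.2 alone among glutamate cells, at 124, against 120.3, 0, 65.96, 25.5 and 20.4 in GABA cells. Npy, which encodes neuropeptide Y, was in I.1 alone, at 62.9, against 0, 63.5, 159, 0 and 62.6 in GABA cells. The number of the 34 precursors at 1 or more was between 6 and 14 in glutamate cells and between 11 and 18 in GABA cells. All genes at 1 or more numbered between 7095 and 13815 in glutamate cells and between 9561 and 15472 in GABA cells. Their part in the count of precursors was not tested. Sst, the precursor of somatostatin, differed by 0.14 ± 2.35 (SE) and reached 5639.6 in the glutamate cell L.2. Tac1, Penk and Cck, precursors of substance P, enkephalin and cholecystokinin, differed by -0.81 ± 2.24, -2.11 ± 1.72 and -0.56 ± 1.84 (SE).

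No gene of transmitter handling outside the classifying set had an unadjusted p under 0.05. Of 10 tested GABA handling genes, 9 were higher in GABA clones, against 59.5% of all genes, with a median of -0.80. It was -0.23 without clone D, -0.53 without clone A and -0.14 with genes detected as a covariate. Of 17 glutamate handling genes, 5 were higher in glutamate clones, with a median of -0.42. Without clone U, 10 were higher in glutamate clones and the median was 0.09, as it was with genes detected as a covariate. Slc17a7, the cortical vesicular glutamate transporter, differed by -1.08 ± 1.39 (SE), and Slc17a8 was too rare to test. Slc6a5, the neuronal glycine transporter, was highest in 2 glutamate cells, L.2 at 31.7 and F.1 at 53.8. Receptor lists were near 0, at 0.08 for 28 AMPA, kainate and NMDA receptor genes and 0.07 for 25 GABA and glycine receptor genes. For monoamine, acetylcholine and peptide receptors, 23 of 36 were higher in GABA clones, near the share of all genes, with a median of -0.54 that was -0.01 after quantile normalization, where 18 were higher in each class. Within that list, Crhr1, the corticotropin-releasing hormone receptor, differed by -3.91 ± 1.43 and the serotonin receptor gene Htr7 by -3.600 ± 1.47 (SE).

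Synaptic genes divided by member. Of 50 vesicle and release genes, 27 were higher in GABA clones, with a median of -0.15. The vesicle GTPase gene Rab3c had 0, 71.3, 17.1, 7.38, 25.9 and 79.7 in glutamate cells, against 56.9, 165, 87.03, 126 and 123 in GABA cells, and its clone means did not overlap. Synpr, the vesicle protein synaptoporin, had 0, 0.0503, 14.5, 0, 2.99 and 30.6 in glutamate cells, against 0, 46.5, 4.17, 48.7 and 444 in GABA cells, a difference of -3.06 ± 1.56 (SE, limma unadjusted p = 0.0633). Of 40 synaptic adhesion and secreted organiser genes, 22 were higher in glutamate clones, with a median of 0.18. Lrrtm3, a postsynaptic adhesion protein that binds neurexins, differed by -4.12 ± 1.45, and Nrxn3, a presynaptic neurexin, by -2.38 ± 1.08 (SE). Both were on the GABA side, and Lgi1, a secreted synaptic organiser, was on the glutamate side at 2.55 ± 1.03 (SE). Snap25, a core release protein, differed by -0.28 ± 0.26 (SE).

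Calcium-binding proteins, often used to name interneuron classes, had members on both sides. Of 20 tested, 12 were higher in glutamate clones, with a median of 0.14, and without clone B 8 were, with a median of -0.15. S100a10 and Hpcal1 had an unadjusted p under 0.05 and were higher in glutamate clones, against 0.714% of all genes. Pvalb, which encodes parvalbumin, was high in glutamate cells, at 3057, 939.8, 723, 159.6, 335 and 1293, and in GABA cells had 2134, 20.7, 653, 0 and 311. O.1 held the second highest Pvalb value of the 11 cells and B.1 none, and the difference was 3.15 ± 1.77 (SE, limma unadjusted p = 0.11). Calb1 and Calb2, which encode calbindin and calretinin, differed by 0.58 ± 1.698 and 0.51 ± 0.86 (SE). S100a10, an annexin partner, had 203, 0, 302, 38.4, 331 and 126 in glutamate cells, against 0, 0, 0, 0 and 38.4 in GABA cells, and Hpcal1, a neuronal calcium sensor, differed by 2.27 ± 0.999 (SE).

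Respiratory chain genes were close between the classes. Of 49 tested, 32 were higher in GABA clones, against 59.5% of all genes, with a median of -0.17. Cox5b, a subunit of cytochrome c oxidase, had 1352, 1079, 1356, 1073, 585 and 761 in glutamate cells, against 1520.4, 1826, 3546, 2102 and 1376 in GABA cells. The difference was -1.04 ± 0.35 (SE, limma adjusted p = 0.962), and the clone means did not overlap. Ndufa9, of complex I, had 208, 92.6, 126, 306, 140.4 and 454 in glutamate cells, against 458, 679, 640.4, 598 and 409 in GABA cells, with Q.2 inside the GABA range.

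**Figure D4:**
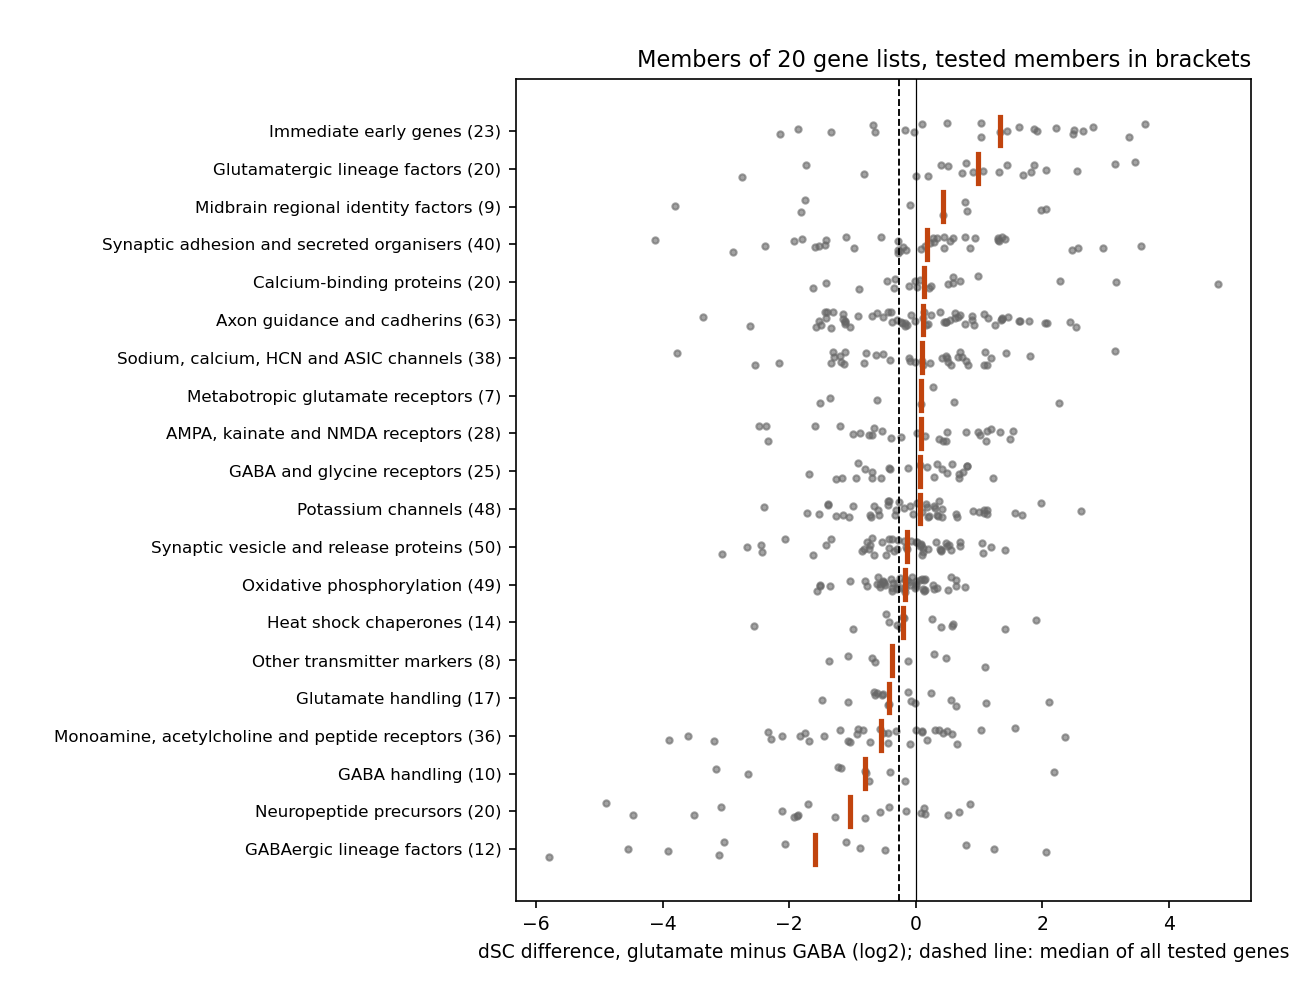
Each point is the dSC difference, glutamate minus GABA in log2, of a tested member of 20 gene lists, red bars are list medians, and the dashed line is the median of all tested genes, -0.26. In this fit immediate early genes and glutamatergic lineage factors have the highest medians, 1.32 and 0.98, and GABAergic lineage factors and neuropeptide precursors the lowest, -1.59 and -1.04.

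The superficial neurons, labelled sSC, gave 6 glutamate clones and 11 GABA clones by the same rule, from 6 and 14 cells. There, too, 0 of 14887 genes were called (0%), 622 had an unadjusted p under 0.05 (4.18%), and 55.9% had a difference above 0. The cell B.2 of sSC, with 2661 genes at 1 or more, stood apart, and without it 4 genes passed, Otx2, Rpp25, Lhx1os and Gm27199, all higher in GABA clones. GABAergic lineage factors had a median of -1.54 in sSC, with 9 of 11 higher in GABA clones, and glutamatergic ones 1.71, with 15 of 20 higher in glutamate clones. Sox14 differed by -5.79 ± 1.24 in dSC and -3.93 ± 1.26 in sSC, and Gata3 by -4.55 ± 1.23 in dSC and -3.71 ± 1.098 in sSC (SE). Otx2 differed by -3.81 in dSC and -5.37 in sSC, Nrn1 by 3.55 and 4.03, Cacna2d1 by 3.14 and 4.24, and Asic4 by -3.77 and -3.98. These genes had the same direction in both tissues, and their dSC minus sSC difference ranged from -1.86 for Sox14 to 1.56 for Otx2, with limma adjusted p of 0.999 for each. All were in a fixed set of markers, and the lists and rule were chosen with earlier results of these data known. In addition, 8 clones had classed cells in both tissues, so sSC is not an independent check of dSC. Lhx5 differed by -3.92 in dSC and by 0.05 in sSC, with an unadjusted p of 0.0284 for the dSC minus sSC difference (limma adjusted p = 0.999).

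The leading dSC genes were then read in sSC. Of the 12 leading genes on the glutamate side, all were tested in sSC and 7 had the same direction, against 57.6% of all genes with that direction in dSC. Of the 12 on the GABA side, 9 were tested in sSC and 7 had the same direction, against 43.1%. Most of those 12 entered the dSC test through the GABA cells alone, so this count is a description only. In sSC, Pno1 differed by -0.46 ± 1.44, Slc25a29 by -1.12 ± 0.99 and Ift74 by 0.02 ± 1.25 (SE). Fos differed by -0.65 ± 1.001 in sSC and Fosb by 0.55 ± 1.27 (SE). The immediate early genes had a median of 0.36 there, and the neuropeptide precursors -0.53. Respiratory chain genes had the opposite order in sSC, where 37 of 49 were higher in glutamate clones, against 55.9% of all genes, with a median of 0.58. Sst differed by 0.14 in dSC and -4.07 in sSC, and Calb1 by 0.58 in dSC and 4.03 in sSC.

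The difference between the tissues was itself tested, dSC minus sSC, and 0 of 14721 genes passed (0%), while 582 had p under 0.05 before adjustment (3.95%). The lowest adjusted p, 0.0881, was shared by Gmppb and AV356131. Gmppb differed by -6.37 in dSC and 4.03 in sSC, a gap of -10.39 ± 2.04 (SE). On the same side, Gm13999, Lin37 and Lysmd1 had gaps of -9.12, -7.83 and -6.29. Lin37, a subunit of the DREAM complex, had 0, 203, 0, 72.1, 0 and 1.75 in glutamate cells, against 103, 219, 263, 475 and 168 in GABA cells of dSC. In the other direction were Ghr, Eif1-ps1, Lamc1, Gm49172 and Uprt, with gaps of 5.88, 4.87, 4.54, 6.56 and 4.72. Ghr, the growth hormone receptor, had 77.7, 14.2, 21.2, 3.51, 43.1 and 22.6 in glutamate cells and 3.71, 2.41, 0, 0 and 5.31 in GABA cells of dSC, and differed by -2.56 ± 0.97 (SE) in sSC. Eif1-ps1 is a processed pseudogene, so its reads may belong to a near-identical gene.

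**Figure D5:**
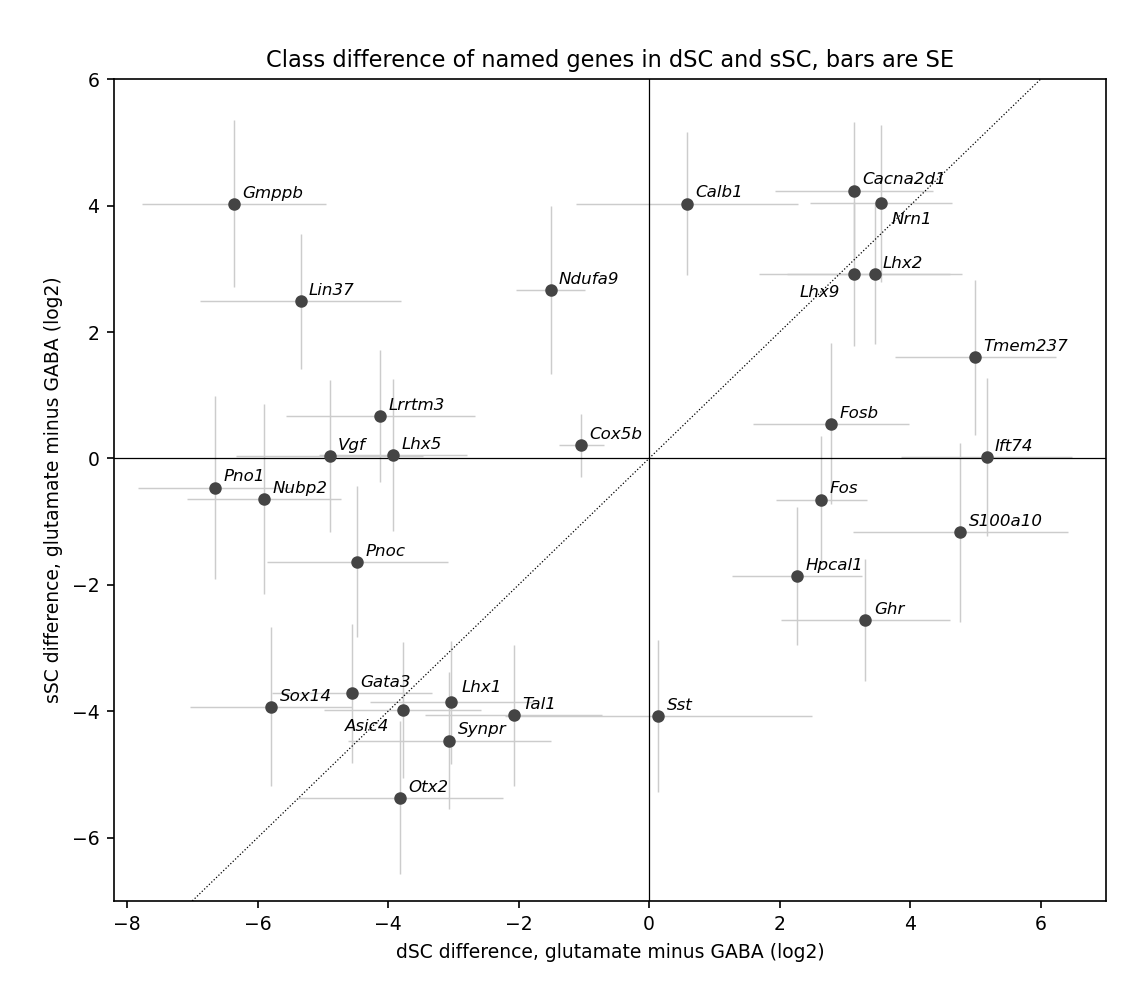
Difference between the classes, glutamate minus GABA in log2, of 30 named genes in dSC (x axis) and sSC (y axis), with SE bars and equal values on the dotted line. Otx2, Sox14, Gata3, Lhx1, Tal1, Asic4 and Synpr lie below 0 on both axes and Nrn1, Cacna2d1, Lhx2 and Lhx9 above 0 on both, while Gmppb and Lin37 lie on opposite sides.

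Transcripts of other cell types were present in both classes. Of 16 microglial markers, 3 to 16 were at 1 or more in glutamate cells and 13 to 16 in GABA cells, and 9 of 16 tested were higher in glutamate clones (median 0.16). Oligodendrocyte markers summed to between 1192 and 8662 in glutamate cells and between 3263 and 6528 in GABA cells, with 8 of 14 higher in glutamate clones. For astrocyte markers the sums ran from 983 to 2817 in glutamate cells and from 1190 to 3320 in GABA cells. All 5 tested red blood cell markers were higher in glutamate clones with every clone included, and 2 of 5 without clone B, where the median of 1.604 became -0.23. Their sums were between 105 and 5533 in glutamate cells and between 7.11 and 900.1 in GABA cells. Among them Hba-a1, a haemoglobin chain, differed by 2.99 ± 1.28 (SE, limma unadjusted p = 0.0363). Vascular markers summed to between 0.308 and 803 in glutamate cells and between 4.34 and 115.6 in GABA cells, and Cdh5, Kcnj8, Lum and Rgs5 were below 1 in all 11 cells. Foxj1 and Ccdc153, ependymal markers, were also below 1 in all 11. The part of these transcripts in the results was not tested.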

How the data were processed

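The labels' protocols name the SMART-Seq Single Cell PLUS kit and polyadenylated RNA. Per the submitters' processing notes, the tools included STAR 2.7.9a and R 4.0.3 and the build was GRCm39. How genes were counted, with which annotation and whether by strand, was not given in the sources used here. In the authors' deposited table, an expression signal called TPM over exons and introns is given for 55359 genes, and each cell adds up to 2000000. It was analysed as a normalised signal, where plain TPM had been assumed. GENCODE M21 supplied symbols for 52083 identifiers.

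Values were transformed as log2(value + 1). Testing was limited to genes that reached 1 in 25% or more of the classed cells, cells of the same class and clone were averaged, and the classes were fitted with limma 3.58.1 (trend and robust, R 4.3.3) and Benjamini-Hochberg adjustment over all genes and a threshold of 0.05. The fold on this scale understates the difference of low genes. The same fit was made in sSC, and the dSC minus sSC difference in a joint fit. Clone letters pair dSC and sSC cells of 1 progenitor by the design, and the correlation limma estimated within clones was 0.0608. The scripts were tested on simulated data. Alternatives changed the pseudocount (0.1, 10), filter, class threshold (0, 2), scaling, covariates, clone block and clones left out, and removal of O.1 or B.2 was added after the data were seen. The labels gave no batch for the clones, and the driver, which is part of the genotype, was tried as a covariate. The named genes are the 12 of smallest p per direction, the 4 of smallest p per list, the 5 per direction of the tissue difference and a fixed set of markers, and a few genes are not reported here. The cells, lists and rule were chosen with earlier results of these data known. Python 3.11.15 with scipy 1.17.1 and matplotlib 3.10.9 was used for the rest.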

Additional observations from a re-analysis of the deposited data

Results flagged for a closer look

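Single clones that stood far from the rest of their class were looked for in 114 groups, with clone means on the log2(value + 1) scale, and 26 were found. Chance gives about 1 in 20 groups of continuous values, a rate that does not hold where most clones are at 0. In 11 of the 26 the gene was listed at 0 in every other clone of the class. Clone F had the highest value of the glutamate clones for Nsdhl at 2.92, Otx2 at 4.79 and Asic4 at 2.39, with the next clone at 0, 0 and 0. Clone I had the highest value of the glutamate clones for Nubp2 at 0.99, with the next clone at 0. Clone J had the highest value of the glutamate clones for Gmppb at 5.28 and Pnoc at 4.996, with the next clone at 0.74 and 0. Clone L had the highest value of the glutamate clones for Lysmd1 at 0.799, with the next clone at 0. Clone Q had the highest value of the glutamate clones for Lhx5 at 0.93, Lhx1 at 3.48, Vgf at 5.798, Cartpt at 6.97, Htr7 at 6.66 and Bag3 at 0.96, with the next clone at 0, 0.52, 2.06, 0, 2.22 and 0. Clone D had the lowest value of the glutamate clones for Kcnip1 at 1.18 and Cacna2d1 at 2.91, with the next clone at 4.09 and 5.81. Clone I had the lowest value of the glutamate clones for Dydc2 at 0, with the next clone at 5.87. Clone J had the lowest value of the glutamate clones for Ift74 at 3.67 and S100a10 at 0, with the next clone at 6.397 and 5.301. Clone L had the lowest value of the glutamate clones for D530033B14Rik at 1.73 and Lamc1 at 0.66, with the next clone at 6.27 and 3.55. Clone A had the highest value of the GABA clones for S100a10 at 5.301, with the next clone at 0. Clone O had the highest value of the GABA clones for Ift74 at 5.01, Dydc2 at 3.34 and Nsdhl at 6.53, with the next clone at 0.63, 0 and 5.499. Clone B had the lowest value of the GABA clones for Nrn1 at 0, with the next clone at 6.22. Clone O had the lowest value of the GABA clones for Sox14 at 2.996, with the next clone at 6.55.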

How the results depend on the processing

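The count of genes called in dSC was 0 in the pooled clones and under the other settings tried, with the exception of limma without trend and robust, where it was 3 (Pno1, Nubp2 and Snx20). These 3 entered the test through the GABA cells alone. Leaving out each clone in turn gave 0 to 0 calls, with 429 to 797 genes at an unadjusted p under 0.05. Without cell B.2 the sSC count was 4. The count for the dSC minus sSC difference was 0 under the other settings and 0 to 1 without single dSC clones, the 1 being Gmppb without clone J (adjusted p = 0.0413). With clone as a fixed replicate block it was 0, with 1040 genes at an unadjusted p under 0.05, against 582 without the block, and as a random block 0, with 596. Clone letters pair dSC with sSC cells of the same progenitor by the design, and no paired analysis within dSC was possible because no clone held both classes there. Over 56 of the 150 named genes and 1320 comparisons with other settings, 0 changed direction and 3 passed the threshold, those of Pno1, Nubp2 and Snx20. The remaining named genes are outside this count, so it says nothing of their direction. Many named genes were picked by smallest p in these same cells. A kept direction was therefore likely beforehand and is no separate evidence for them. The median difference over all dSC genes ranged from -0.52, with a class threshold of 2, to 0.11, with genes detected as a covariate, and was -0.05 without clone D. Of the 20 list medians, 12 changed sign when a single clone was left out and 8 did not. The median of the glutamatergic lineage factors was above that of the immediate early genes after quantile normalization (1.61 against 1.32) and below it with the values as deposited (0.98 against 1.32). The causes were not tested. The class score with Slc32a1 leaves out O.1 and is the same fit as the one without that cell. The values carry no depth, 4 GABA clones limit the precision, and low genes may be listed at 0 for want of capture.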

Other observations

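The cell left out by the rule, C.1 (M11GTTG-Fz10-CreER), held transcripts of both programmes. Its Slc17a6 was at 88.4, Gad1 at 62.3, Gad2 at 98.7 and Slc32a1 at 17.8. It had 20 of 27 glutamatergic lineage factors at a value of 1 or more, and 13 of 27 GABAergic ones. The glutamate cells had between 9 and 15 glutamatergic factors and between 0 and 9 GABAergic ones, and the GABA cells between 5 and 16 glutamatergic and between 6 and 13 GABAergic ones. Sox14 was at 16.03 in C.1, Gata3 at 2.43, Lhx2 at 24.8 and Lhx9 at 14.1. It also had 28 of 34 neuropeptide precursors at 1 or more, above the 18 of the richest classed cells, among them Cartpt at 725 and Npy at 369. C.1 had 15220 genes at 1 or more, close to the 15472 of A.2, and its part in these counts was not tested.

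The sisters of clone O, both GABA cells of dSC, differed in some lineage factors. O.2 had Sox14 at 62.7, Gata3 at 116, Lhx5 at 12.3 and Pou4f1 at 166, and all 4 were listed at 0 in O.1. Of the 27 GABAergic lineage factors, 6 were at 1 or more in O.1 and 9 in O.2, with summed values of 236.6 and 241.3. O.1 had 9561 genes at 1 or more and O.2 had 13048, and the part of capture in these zeros was not tested. Pvalb was at 20.7 in O.2 and at 2134 in O.1, Calb2 at 163 in O.2 and 1342 in O.1.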
